A study of Rattus norvegicus with 9 samples.

Results

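The insulin-like growth factor (IGF) axis was followed in rat kidneys through 10 genes: the ligands Igf1 and Igf2, the receptor Igf1r, and the binding proteins Igfbp1 to Igfbp7. The genes were picked by name, and every gene probe whose name in the array files equals one of them was taken. This gave 13 probes of 30367 gene probes, and 10 of 26115 gene names. Igf1, Igfbp2 and Igfbp5 had 2 probes each, and the other genes 1.

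The arrays came from a rat model of kidney donation after circulatory death. NP samples (n = 5) were kidneys of Fisher F344 rats taken after 20 min. of warm ischaemia. MSC samples (n = 4) were kidneys with the same ischaemia that were then perfused for 4 hrs at 4°C with Belzer solution to which 3000000 mesenchymal stromal cells (MSC) had been added. The labels disagree on the NP kidneys, since the treatment field calls them not perfused while their titles name a cold perfusion with Belzer solution. They are called NP here after the treatment field and the study's methods. With this reading only the MSC group was perfused, so that perfusion and MSC cannot be told apart. The MSC were grown from bone marrow of transgenic Sprague Dawley rats that carry EGFP, a green fluorescent marker, and were a few passages old. Each array measured RNA of 1 kidney, and which piece of it was taken is not given in the sources used here. In such bulk tissue fewer cells of a type and less RNA per cell cannot be told apart.

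IGF-I and IGF-II are small hormones that act through the IGF-I receptor, a tyrosine kinase that signals through PI3K and AKT and supports growth and survival of cells. In blood and tissue most of the IGF is held by binding proteins, which lengthen its life, keep it from the receptor or release it where proteases cut them. In the kidney IGF-I is known for raising plasma flow and filtration, and the binding proteins are made in different places, among them the endothelium, the glomerulus, the interstitium and the tubules.

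All values are log2 of the probe's intensity after cyclic loess normalization, a method that evens out differences between arrays that depend on brightness. Since each probe has its own brightness, values are compared between kidneys and never between probes. A difference is the MSC mean minus the NP mean on the log2 scale. It is given with the standard error (SE) of limma's linear model, fitted over all probes above background, and with the Benjamini-Hochberg false discovery rate (FDR) over those probes. For single probes a two-sided exact permutation p is added, from the 126 ways to divide 9 arrays into 5 and 4, which cannot be smaller than 0.00794. These exact p-values are not adjusted. The p-values measure only the spread between these kidneys.

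What each probe can report depends on its sequence, which is printed here 5′ to 3′ in lower case for the probes on which the results turn. The coordinates are those of the array files, on rn4, and the annotation of exons was not used here. Of the probes with a reading frame that no stop codon breaks before its end, 1 Igf1 probe (chr7:24587916-24587975, plus strand), the Igf1r probe (chr1:122989150-122989209, plus strand), the Igfbp6 probe (chr7:140888422-140888481, plus strand) and 1 Igfbp2 probe (chr9:71993843-71993902, plus strand) are shown whole. The capitals in the Igfbp2 probe mark a TAA that closes a reading frame open over the rest of the probe.
Igf1, A_64_P052740: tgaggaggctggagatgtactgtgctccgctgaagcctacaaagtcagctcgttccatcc
Igf1r, A_44_P474037: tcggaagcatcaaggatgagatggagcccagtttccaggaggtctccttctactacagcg
Igfbp2, A_64_P032415: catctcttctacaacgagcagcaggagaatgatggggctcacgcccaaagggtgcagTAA
Igfbp6, A_44_P378799: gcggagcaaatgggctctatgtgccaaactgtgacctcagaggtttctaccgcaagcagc

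Of the second Igfbp2 probe (chr9:71994131-71994190, plus strand), both Igfbp5 probes (chr9:72000312-72000371 and chr9:72003659-72003718, minus strand) and the Igfbp7 probe (chr14:33069995-33070054, plus strand) the first 30 of 60 bases are shown. The second Igfbp2 probe starts 228 bases beyond the end of the first. Of the Igfbp5 probes, A_44_P264240 lies 3287 bases downstream of A_64_P047478. The former was the only probe of the 13 without a RefSeq accession in the array files, and 12 of 13 were matched through their accession to the same current symbol in RefSeq's table for GRCr8.
Igfbp2, A_64_P039026: gcttgggaatggggaaagaaatttttattt
Igfbp5, A_44_P264240: ttacgatttaaagcacagtagaagggaaag
Igfbp5, A_64_P047478: accccggaaacgtattcctatttgaagcaa
Igfbp7, A_64_P048187: ttacagaaaaagcatgcagagctttaaaca

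All 13 probes passed the filter on low values, which kept 15833 probes, and all of their 117 values were well above background with 0 saturated spots. Before normalization the median gene spot had an intensity of 577 to 917 on the different arrays, and the median negative control one of 217 to 237. The arrays lay on 2 slides, each scanned on its own, with NP replicates 1 to 3 and MSC replicates 1 and 2 on slide 1, and the other arrays on slide 2. Kidney markers were present, with 12 of 12 proximal tubule genes and 7 of 7 genes of the thick ascending limb above the filter. Of the markers of cultured MSC 9 of 12 genes passed it, and 0 of their 11 probes had an unadjusted p under 0.05 in limma. Thy1, Itga5 and Postn did not pass, and Eng, which did, is also in the endothelial list. The mean deviation of the list was -0.65 to 0.35 on the NP arrays, without added MSC, and -0.17 to 0.36 on the MSC arrays. Of the marker probes 0 were called at an FDR under 0.05 and a 1.5-fold change. At an unadjusted p under 0.05 in limma, where 6.48% of all probes were higher and 5.13% lower in the MSC samples, 7 of 11 intercalated cell probes were higher, as were 3 of 10 probes of collecting duct principal cells, 3 of 14 of the proximal tubule, 2 of 12 of the thick ascending limb, 2 of 8 of perirenal fat, 2 of 13 of stroma, 2 of 13 of the stress genes and 2 of 11 of injured tubules. The scores of the groups overlapped for each of the lists that follow. For the intercalated cells the mean deviation of the list was -0.71 to 0.23 on the NP arrays and 0.14 to 0.51 on the MSC arrays. Of 6 red cell probes 3 were lower at that p, with a mean deviation of 0.13 to 0.91 on the NP and -2.51 to 0.52 on the MSC arrays. Of 11 podocyte probes 1 was lower, and the median difference of that list was -0.33. Perirenal fat, with a median difference of 1.33 on the log2 scale, had its highest values on MSC replicates 3 and 4, at 2.05 and 1.43, and the lowest on MSC replicate 1, at -1.09. Stroma ran from -0.67 on NP replicate 1 to 0.64 on NP replicate 2. The part of these lists in the results that follow was not tested.

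The question was whether any member of the axis differed between MSC and NP samples. With the thresholds of the study, an FDR under 0.05 and a change of more than 1.5-fold, limma called 0 of the 13 probes, as it called 0 of all 15833 probes (0% in either direction). On these groups the paper reports Tmem52b and Calb1 as higher in MSC at these thresholds, after its own filter and a collapse to genes. Neither was called here, and the cause was not tested. At an unadjusted p under 0.05, 1 probe was higher in the MSC samples (Igfbp7), where 6.48% of all probes were, and 1 was lower (an Igfbp2 probe), where 5.13% of all were. There was no probe with all MSC values above or all below the NP values, against 3.11% and 2.13% of all probes. The members' counts were therefore near those of the array as a whole. The log2 difference was below 0 for 9 of 13 probes (51.3% of all probes), and its median was -0.07 against -0.0049 over all probes. For 7 of 13 probes the 95% interval lay within a 1.5-fold change either way, and for 6 it reached beyond.

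**Figure D1:**
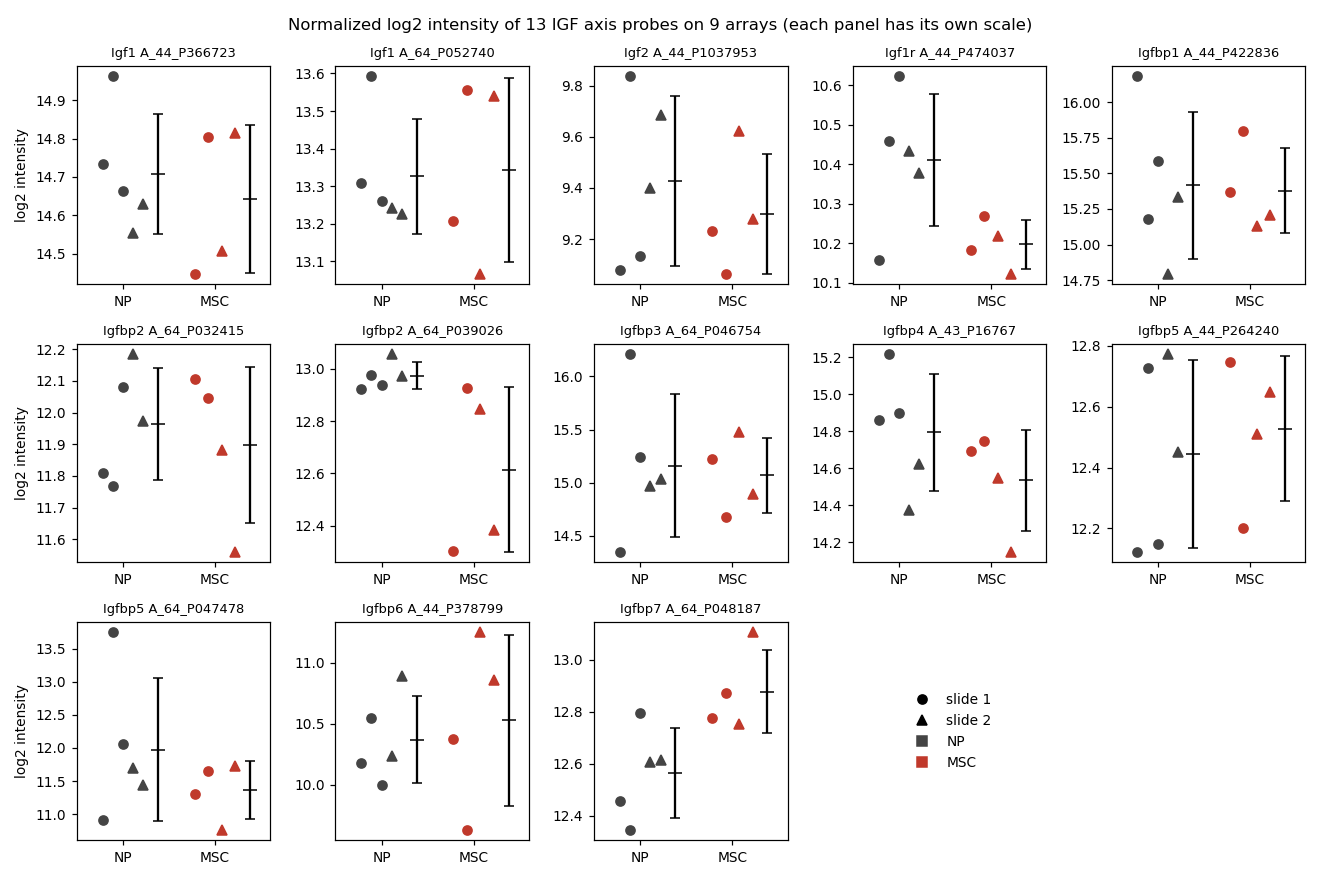
Normalized log2 intensity of the 13 probes on each of the 9 arrays, with 1 panel and 1 scale per probe (grey, NP; red, MSC; circles, slide 1; triangles, slide 2; bars, mean ± S.D.). In every panel the ranges of the groups overlap. The MSC arrays sit low for Igf1r and the Igfbp2 probe A_64_P039026 and high for Igfbp7, and NP replicate 2 lies at the top of 6 panels.

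**Figure D2:**
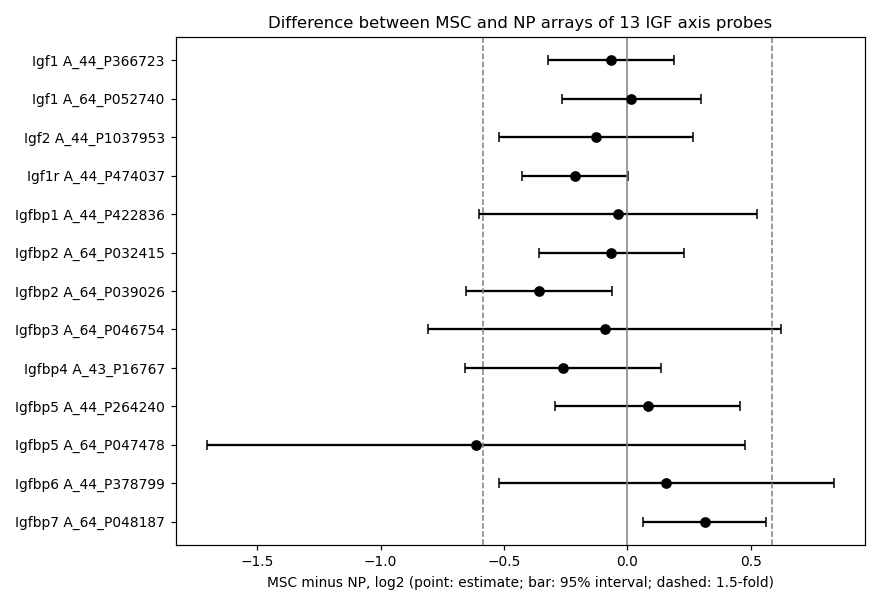
Difference between MSC and NP samples for each probe on the log2 scale, with limma's 95% interval (points, estimates; solid line, no difference; dashed lines, a 1.5-fold change). The intervals of Igfbp7 and of the Igfbp2 probe A_64_P039026 leave out 0, and the widest is that of the Igfbp5 probe A_64_P047478.

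Igf1, which encodes the IGF-I hormone, did not separate the groups with either probe. With A_44_P366723 the values were 14.73, 14.96, 14.66, 14.55 and 14.63 in NP replicates 1 to 5, and 14.45, 14.80, 14.51 and 14.81 in MSC replicates 1 to 4. With A_64_P052740, the probe shown above, they were 13.31, 13.59, 13.26, 13.24 and 13.23 in the NP and 13.21, 13.56, 13.07 and 13.54 in the MSC samples. On both probes MSC replicates 2 and 4 and NP replicate 2 were the 3 highest kidneys, and MSC replicates 1 and 3 were the lowest. The differences were -0.07 ± 0.11 (SE, limma FDR = 0.854, exact permutation p = 0.579) and 0.02 ± 0.13 (limma FDR = 0.969, exact permutation p = 0.865). Their 95% intervals, -0.32 to 0.19 and -0.26 to 0.30, both lay within a 1.5-fold change. The probes are 16739 bases apart in the genome and name 4 and 2 RefSeq transcripts in the array files. Over the 9 arrays they had a Pearson's r of 0.90 and a Spearman's rho of 0.95, and an r of 0.93 without the 2 arrays farthest from the median.

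Igf2, a ligand best known from fetal growth, read 9.08, 9.84, 9.13, 9.40 and 9.68 in the NP samples and 9.23, 9.06, 9.62 and 9.28 in the MSC samples. The groups overlapped, with NP replicates 2 and 5 above every MSC kidney and 3 of 4 MSC kidneys below the NP median. The difference was -0.13 ± 0.18 (limma FDR = 0.804, exact permutation p = 0.532), with a 95% interval of -0.52 to 0.26. It was -0.03 without NP replicate 2, the highest kidney.

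Igf1r encodes the receptor through which both ligands act. Its probe is spotted 10 times on each array, and read 10.16, 10.46, 10.62, 10.43 and 10.38 in the NP samples and 10.18, 10.27, 10.22 and 10.12 in the MSC samples. All 4 MSC kidneys lay below 4 of the 5 NP kidneys, and NP replicate 1 fell among them. The difference was -0.21 ± 0.10 (limma p = 0.0509, FDR = 0.432, exact permutation p = 0.0476), a 1.16-fold higher level in the NP samples with a 95% interval of -0.43 to 0.00 on the log2 scale. It was -0.19 within slide 1 and -0.24 within slide 2. Leaving out 1 array at a time gave -0.28 without NP replicate 1 (limma FDR = 0.181) to -0.16 without NP replicate 3 (limma FDR = 0.614). Over the 9 arrays the Igf1r value had an r of -0.89 with the mean deviation of the intercalated cell markers, of -0.81 with that of the leukocyte markers and of -0.73 with that of the collecting duct principal cell markers, lists picked from many after the values were seen.

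Igfbp1, a binding protein that insulin lowers and stress raises in the liver, read 16.18, 15.18, 15.59, 14.79 and 15.34 in the NP samples and 15.37, 15.80, 15.13 and 15.21 in the MSC samples. The NP kidneys held both the highest and the lowest value, and the MSC kidneys lay between them. The difference was -0.04 ± 0.25 (limma FDR = 0.967, exact permutation p = 0.937), with a 95% interval of -0.60 to 0.53 that reached a 1.5-fold decrease. Its sign turned without NP replicate 1, where it was 0.15, and within slide 2, where it was 0.11.

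Igfbp2, which binds IGF-II somewhat better than IGF-I, gave a different picture with each probe. On A_64_P039026, the downstream probe, the NP samples read 12.92, 12.98, 12.94, 13.06 and 12.97 and the MSC samples 12.30, 12.93, 12.84 and 12.38. The NP kidneys were close together, MSC replicates 1 and 4 lay well below them, MSC replicate 3 lay just below, and MSC replicate 2 lay within their range. The difference was -0.36 ± 0.13 (limma p = 0.0224, FDR = 0.374, exact permutation p = 0.0159), or 1.28-fold lower in the MSC samples. Within the slides it was -0.33 and -0.40, and without MSC replicate 4 it was -0.28 (limma FDR = 0.587). Over the 9 arrays this probe had an r of -0.77 with the mean deviation of the collecting duct principal cell markers, of 0.71 with that of the red cell markers and of 0.67 with that of the podocyte markers. These lists were likewise picked after the values were seen, and their part in the result was not tested. The red cell markers were lowest, at -2.51, on MSC replicate 1, and the podocyte markers, at -0.82, on MSC replicate 4. This probe had its lowest values on those arrays.

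On the other Igfbp2 probe, A_64_P032415, which ends in TAA, the NP samples read 11.81, 11.77, 12.08, 12.18 and 11.97 and the MSC samples 12.11, 12.04, 11.88 and 11.56. The groups overlapped over nearly the whole NP range. MSC replicate 4 was the lowest kidney here, and MSC replicate 1, the lowest on the downstream probe, was the second highest. The difference was -0.07 ± 0.13 (limma FDR = 0.877, exact permutation p = 0.643), at 0.19 within slide 1 and -0.36 within slide 2, and 0.05 without MSC replicate 4. Over the 9 arrays the probes had an r of 0.30 and a rho of 0.22, and an r of 0.47 without the 2 arrays farthest from the median. Their differences between groups were -0.29 apart on the log2 scale (exact permutation p = 0.0873).

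**Figure D3:**
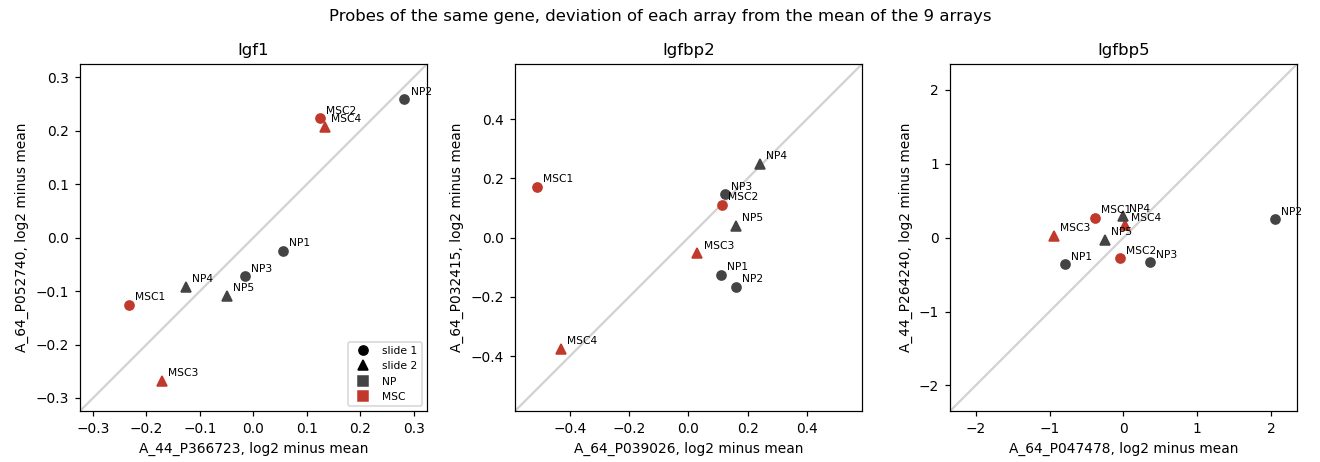
Deviation of each array from the mean of the 9 arrays for both probes of Igf1, Igfbp2 and Igfbp5, in log2 units (grey, NP; red, MSC; circles, slide 1; triangles, slide 2; diagonal, equal deviation). The Igf1 arrays follow the diagonal, MSC replicate 1 stands off it for Igfbp2, and NP replicate 2 stands alone on 1 Igfbp5 probe.

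Igfbp3 encodes the main carrier of IGF in blood. It read 14.35, 16.21, 15.24, 14.97 and 15.03 in the NP samples and 15.22, 14.68, 15.48 and 14.89 in the MSC samples. NP replicate 2 was the highest and NP replicate 1 the lowest of all kidneys, and every MSC value lay between them. The difference was -0.09 ± 0.32 (limma FDR = 0.933, exact permutation p = 0.833), with a 95% interval of -0.81 to 0.62. It was 0.17 without NP replicate 2, -0.32 within slide 1 and 0.19 within slide 2, so that no direction could be given. The Igfbp3 value had an r of 0.87 with the stroma markers over the 9 arrays, and of 0.80 without NP replicate 2. Its probe lies 4448 bases from that of Igfbp1 on chr14 and on the other strand, and over the 9 arrays these neighbours had an r of -0.56.

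Igfbp4, a binding protein that holds IGF from its receptor until the protease PAPP-A cuts it, read 14.86, 15.22, 14.90, 14.37 and 14.62 in the NP samples and 14.69, 14.75, 14.55 and 14.15 in the MSC samples. All MSC kidneys were below the NP median, and 1 was below every NP kidney. The difference was -0.26 ± 0.18 (limma FDR = 0.584, exact permutation p = 0.246), with -0.27 within slide 1 and -0.15 within slide 2. It was -0.15 without NP replicate 2, -0.13 without MSC replicate 4 and -0.039 with array weights, a fit that gives less weight to arrays that stray. The Igfbp4 value had an r of -0.77 with the collecting duct principal cell markers over the 9 arrays, and of -0.76 without NP replicate 2. With the intercalated cell markers the r was -0.70 and -0.46, and with the endothelial markers -0.48 and -0.84, in that order. These lists were picked after the values were seen, and their part was not tested.

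Igfbp5, which also binds to the matrix around cells, was the member whose probes had the widest gap between their group differences. On A_64_P047478 the NP samples read 10.91, 13.75, 12.07, 11.70 and 11.45 and the MSC samples 11.31, 11.66, 10.76 and 11.72. NP replicate 2 stood far above all other kidneys, and the remaining arrays overlapped. The difference of -0.61 ± 0.49 (limma FDR = 0.645, exact permutation p = 0.381) was the largest of the 13 probes, and was -0.17 without NP replicate 2. It was -0.76 within slide 1 and -0.33 within slide 2, which does not hold that kidney. On A_44_P264240, which lies further downstream, the NP samples read 12.12, 12.73, 12.15, 12.77 and 12.45 and the MSC samples 12.75, 12.20, 12.51 and 12.65. Here NP replicate 2 was just below NP replicate 4, the highest kidney, and the difference was 0.08 ± 0.17 (limma FDR = 0.880, exact permutation p = 0.643). Leaving out 1 array gave 0.0014 (without NP replicate 1) to 0.19 (without MSC replicate 2). The values of the 9 kidneys spanned 2.99 on the first probe and 0.65 on the second. The probes had an r of 0.30 and a rho of 0.20, and an r of 0.06 without the 2 arrays farthest from the median. Their group differences were -0.70 apart (exact permutation p = 0.254), and without NP replicate 2 they were -0.17 and 0.15.

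Igfbp6, which prefers IGF-II, read 10.18, 10.55, 10.00, 10.23 and 10.89 in the NP samples and 10.37, 9.62, 11.25 and 10.86 in the MSC samples. The MSC kidneys held both the lowest and the highest value. The difference was 0.16 ± 0.30 (limma FDR = 0.870, exact permutation p = 0.659), with a 95% interval of -0.52 to 0.84, and it ran against itself on the slides, at -0.24 within slide 1 and 0.49 within slide 2. Without MSC replicate 3 it was -0.08.

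Igfbp7, a more distant member that binds IGF weakly and is found in vessel walls, read 12.46, 12.35, 12.80, 12.61 and 12.62 in the NP samples and 12.78, 12.87, 12.75 and 13.11 in the MSC samples. MSC replicates 2 and 4 were above all NP kidneys, the other MSC kidneys were above 4 of the 5, and NP replicate 3 overlapped with them. The difference was 0.31 ± 0.11 (limma p = 0.0185, FDR = 0.356, exact permutation p = 0.0317), a 1.24-fold higher level in the MSC samples with a 95% interval of 1.05- to 1.48-fold. It was 0.29 within slide 1 and 0.32 within slide 2, and 0.24 without MSC replicate 4 (limma FDR = 0.573). Of the marker lists, that of podocytes had an r of -0.78 with Igfbp7 over the 9 arrays, and was lowest, at -0.82, on MSC replicate 4, where Igfbp7 was highest. Intercalated cell, collecting duct principal cell and proximal tubule markers had an r of 0.62, 0.61 and 0.58, and endothelial markers one of 0.12. Without NP replicate 2 these were 0.36, 0.52, 0.64 and 0.32 in that order. The part of these lists in the result was not tested.

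Much of what the members did was to vary between kidneys of the same group. The S.D. within groups had a median of 0.28 on the log2 scale over the 13 probes, against 0.17 over all probes. It ran from 0.13 for Igf1r to 0.86 for the Igfbp5 probe A_64_P047478. That probe was at the 99.3rd percentile of all probes, Igfbp3 at 96.4, Igfbp6 at 95.8 and Igfbp1 at 92.3. Igf1r, at 29.5, and Igfbp7, at 46.5, were among the steadier probes. The Igf1r value is a mean of 10 spots per array and that of Igfbp7 of 2, and the part of this in the spread was not tested. Without NP replicate 2 there were again 4 of 13 probes above the 90th percentile, and the median was 0.26 against 0.16.

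**Figure D4:**
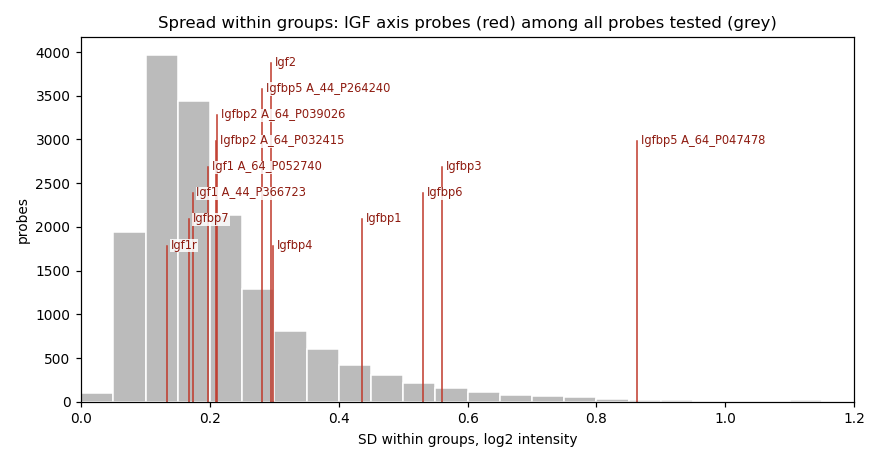
S.D. within groups, pooled over NP and MSC samples, in log2 units. Grey bars count the 15833 probes tested, red lines mark the 13 probes at heights that carry no value, and 21 probes beyond 1.2 are not drawn. Igfbp1, Igfbp6, Igfbp3 and 1 Igfbp5 probe lie in the right tail.

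NP replicate 2 was the highest of the 9 arrays for 6 of the 13 probes, namely both Igf1 probes, Igf2, Igfbp3, Igfbp4 and 1 Igfbp5 probe. It was the highest for 28.7% of all probes as well, and NP replicate 1 was the lowest for 26% of all probes and for 2 of the 13. These arrays had the highest and the lowest level of stroma markers.

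Some members differed more between slides than between groups. With group in the model, 3 of 13 probes differed between slides at an unadjusted p under 0.05 in limma, where 13.7% of all probes did, and 0 of 13 at an FDR under 0.05, where 0.0947% of all did. The 4 Igfbp4 values of slide 2 (14.37 and 14.62 in NP, 14.55 and 14.15 in MSC) all lay below the 5 of slide 1, and it was the only member without overlap (6.34% of all probes). The Igfbp4 slide difference was -0.44 ± 0.12 (limma FDR = 0.159). Igfbp6 was higher on slide 2 by 0.66 ± 0.24 (limma FDR = 0.275) and Igfbp1 was lower, at -0.51 ± 0.21 (limma FDR = 0.329). Slide and scan coincide and cannot be told apart.

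**Figure D5:**
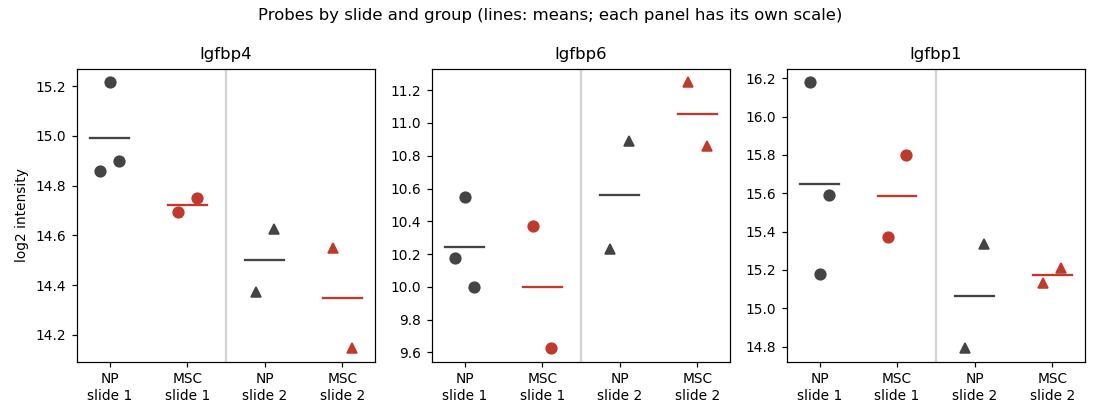
Log2 intensity of Igfbp4, Igfbp6 and Igfbp1 by slide and group (grey, NP; red, MSC; circles, slide 1; triangles, slide 2; horizontal lines, means of 2 or 3 arrays). All 4 Igfbp4 values of slide 2 lie below those of slide 1.

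Among themselves the members shared little. Over the 78 pairs of probes Pearson's r across the 9 arrays ran from -0.84 to 0.90 with a median of 0.05, and the Igf1 pair was the only one above 0.8. After it came Igf2 and Igfbp3, with an r of 0.76 that was 0.56 without NP replicate 2, and Igf2 and Igfbp6, with 0.70 and 0.82. Igfbp1 and the Igfbp5 probe A_44_P264240 ran opposite, with an r of -0.84 both with and without NP replicate 2. The endothelial markers had an r of -0.81 with Igfbp1 and of 0.85 with that Igfbp5 probe. The stroma markers had -0.75 and 0.76, and the markers of cultured MSC -0.74 and 0.75. These lists were picked after the values were seen. All of these points share arrays, slides and normalization, and the correlations are descriptions of 9 kidneys.

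For each gene the array was searched for the genes with the most similar profile over the 9 arrays. Of those with a gene symbol in the array files, Igfbp3 was closest to Colec12, a scavenger receptor with a collagen domain, and to Col12a1, a fibril-associated collagen, with an r of 0.99 and 0.98. Igfbp1 was closest to Galnt14 with 0.99, and Igf1r to Polr2h, a subunit of the RNA polymerases, with 0.97. Igf2 had an r of 0.96 with Lypd1 and Igfbp7 one of 0.98 with Mcts1. The closest named genes were Isca1 for Igf1 A_44_P366723 (0.96), Clic3 for Igfbp2 A_64_P039026 (0.93), Sidt2 for Igfbp4 (0.97) and Tmem255b for Igfbp5 A_64_P047478 (0.99). The search ran over the 15833 probes and 9 arrays and gives a description only.

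Around the members, 3 lists of other IGF pathway genes were read, each from limma over all probes. Of the extracellular partners and receptors 8 genes with 10 probes passed the filter, 0 of these probes had an unadjusted p under 0.05, and the median difference was -0.01. The list holds Igf2r, the receptor that clears IGF-II, with 0.18 ± 0.21, and the insulin receptor Insr with -0.07 ± 0.08. Pappa, the protease that cuts Igfbp4, had 0.10 ± 0.15, and Igfals, the third part of the circulating IGF complex, had -0.01 ± 0.08. The smallest p of the list was that of Htra1, a protease that cuts binding proteins, with 0.17 ± 0.12 (limma FDR = 0.579, exact permutation p = 0.222). It was 0.084 without NP replicate 2 and 0.083 with array weights.

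Of the signalling genes 21 with 26 probes passed the filter, and 0 probes were called. At an unadjusted p under 0.05, 3 of the 26 probes were higher in the MSC samples, where 6.48% of all probes were, and 4 were lower, where 5.13% of all were. The median difference was -0.02. The higher ones were Grb10, an adaptor that restrains the receptor, with 0.33 ± 0.11 (limma FDR = 0.334, exact permutation p = 0.0238), and the kinases Akt1 with 0.31 ± 0.12 (limma FDR = 0.387, exact permutation p = 0.0476) and Akt2 with 0.30 ± 0.12 (limma FDR = 0.387, exact permutation p = 0.0556). Lower were Pdpk1, the kinase that switches AKT on, with -0.31 ± 0.12 (limma FDR = 0.387, exact permutation p = 0.0476), and Gsk3b, a kinase that AKT inhibits, with -0.37 ± 0.16 (limma FDR = 0.423, exact permutation p = 0.0714), which was -0.24 without NP replicate 2. Foxo3, a transcription factor that AKT keeps out of the nucleus, was lower by 0.49 ± 0.20 (limma FDR = 0.392, exact permutation p = 0.0635). Of the adaptor Grb2 1 probe had -0.33 ± 0.14 (limma FDR = 0.422, exact permutation p = 0.0476), while another, A_43_P15304, had 0.06 ± 0.07. Without NP replicate 2 the first was -0.21. Within slide 1 and slide 2 Akt2 gave 0.39 and 0.15, and Grb10 gave 0.42 and 0.18. For Akt2 scaling to the 75th percentile gave 0.63 and array weights gave 0.19.

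Of the RNA-binding proteins named after their hold on Igf2 mRNA, and H19, the non-coding RNA next to Igf2, 1 gene with 2 probes passed. Igf2bp2 had -0.43 ± 0.14 on A_44_P1047467 (limma FDR = 0.334, exact permutation p = 0.0476) and -0.20 ± 0.33 on A_64_P083239 (limma FDR = 0.850, exact permutation p = 0.762).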

How the data were processed

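Kidney RNA was labelled with Cy3 and hybridized to Agilent rat arrays of 1 colour (62976 spots, 308 negative controls). The intensity of each spot was made by the authors with Agilent Feature Extraction 10.7.3.1 and deposited without normalization. The authors also deposited a table of normalized log2 values, whose correlation with the values used here (Pearson's r, per array) was 0.99987 to 0.99997. Following the study's methods, mean pixel intensity was log2 transformed and normalized by cyclic loess (R 4.3.3, limma 3.58.1), without background subtraction. Spots with outlier flags (273 to 593 per array, 1 of them on a member probe) were left out, and spots of a probe were averaged. The wording of the methods' filter leaves room for other readings, and here a probe had to exceed 1.1 times the 95th percentile of the negative controls' log2 values on at least 4 arrays. Probes were tested one by one with limma, without covariates. A discarded MSC array was not analysed here.

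Every member probe was named. Of the pathway lists the counts, the genes with an unadjusted p under 0.05 and the smallest p of each list were named, with a few others chosen after their values were seen. The 3 most similar genes came from the member probe with the smallest p. They are not reported here for Igfbp6. The members and lists were chosen with earlier results of these data known. The steps were tested on simulated data. Alternatives took other normalizations, filters, probe choices, weights and blocks, the deposited values, single slides and left out arrays. The NP and MSC samples were not treated as pairs in the main fit. Deviations of samples with the same replicate number had an r of 0.20, 0.32, -0.35 and 0.05. Of these 4 numbers 2 matched best with their own, which cannot decide whether the samples were paired. The number of arrays limits the precision.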

Additional observations from a re-analysis of the deposited data

Results flagged for a closer look

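In groups of 5 NP and 4 MSC samples, Dixon's ratio (the gap of the outermost value to its neighbour over the range) was taken for 22 probes named in the text, or 44 groups, of which 3 passed the 95% critical value. About 1 in 20, or 2.2, is what chance gives. NP replicate 2 stood above the other NP samples for the Igf1 probe A_64_P052740, at 13.59 against 13.31 for the next (ratio 0.772). MSC replicate 2 stood below the other MSC samples for Htra1, at 13.12 against 13.37 (ratio 0.964), and NP replicate 5 stood above the other NP samples for Akt2, at 9.34 against 8.93 (ratio 0.746).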

How the results depend on the processing

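The 24 alternatives gave 309 values for the 13 probes, of which 0 were called, 279 kept their direction and 30 turned. The other filters and the choice of 1 probe per gene refit the same values, so that the differences under them could not turn. The lowest FDR of a member was 0.181. Igf2, Igf1r, Igfbp4, Igfbp7 and the probes Igfbp2 A_64_P039026 and Igfbp5 A_64_P047478 kept their direction under all alternatives run, though not their size, with -0.24 to -0.026, -0.28 to -0.16, -0.37 to -0.039, 0.20 to 0.37, -0.46 to -0.21 and -0.88 to -0.17 in that order. The -0.039 of Igfbp4 came with array weights, and the -0.21 of Igfbp2 A_64_P039026 with the mean of both probes of its gene. An unadjusted p under 0.05 was found under 17 of 24 for Igfbp2 A_64_P039026, 19 for Igfbp7, 9 for Igf1r and 1 for Igfbp4. Values that turned are log2 differences. Igf1 A_64_P052740 gave -0.035 with median scaling, -0.00072 with scaling to the 75th percentile, -0.024 with the mean of its gene's probes and -0.0052 within slide 1. Igf1 A_44_P366723 gave 0.069 within slide 2. Array weights gave 0.19 for Igfbp1, 0.00060 for Igfbp3 and -0.023 for Igfbp6. Igfbp1 gave 0.014 with slide as a block and 0.11 within slide 2. Igfbp5 A_44_P264240 gave -0.27 with the mean of its gene's probes and -0.033 within slide 2. That mean is 1 value for both probes of a gene. Where their signs differ 1 of them has to turn, as for Igf1 and Igfbp5. Within slide 1 Igfbp2 A_64_P032415 gave 0.19 and Igfbp6 -0.24, and within slide 2 Igfbp3 gave 0.19.

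Leaving out 1 array gave -0.12 to -0.000036 for Igf1 A_44_P366723, -0.055 to 0.11 for Igf1 A_64_P052740, -0.19 to 0.15 for Igfbp1, -0.13 to 0.047 for Igfbp2 A_64_P032415, -0.30 to 0.17 for Igfbp3 and -0.083 to 0.46 for Igfbp6. Leaving out both NP replicates 1 and 2, chosen after the data were seen, gave 0.028 for Igf1 A_44_P366723, 0.14 for Igfbp1 and -0.18 for Igfbp2 A_64_P032415, and 1 probe of all was called lower in the MSC samples. Of all probes, 2 were called higher with array weights and 4 within slide 2, against 0, and none of these was a member. With the replicate number as a block NP replicate 5 has no partner, and the members' differences equal those without it. Then 0 probes were called, and of the members only Igf1 A_64_P052740 turned, to -0.0084. The cause of these changes was not tested.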
